A study of Mus musculus with 19 samples.

Results

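Teneurins and latrophilins form a family of cell surface adhesion partners, and their expression was followed in the mouse vomeronasal organ (VNO) after loss of Smad4. The 7 genes are the 4 teneurins Tenm1, Tenm2, Tenm3 and Tenm4 and the 3 latrophilins Adgrl1, Adgrl2 and Adgrl3, out of 35596 genes with an estimated read count. They were chosen by name as these gene families, with earlier results of these data known, and all 7 passed the filter on low counts in each comparison. Expression was measured by polyA+ mRNA-seq of whole VNOs from female mice at postnatal day 21, in 2 mouse lines. In the AP-2εCre line, Cre recombinase sits in the Tfap2e locus and is active from immature basal vomeronasal sensory neurons (VSNs) onward. In the OMPCre line it sits in the Omp locus and is active in mature VSNs, both apical and basal. Each line had 3 conditional knockout (cKO) libraries, Cre+/- with Smad4 flox/flox, in which Smad4 can be deleted only in the cells that express Cre. Its controls were 3 heterozygous Cre+/- libraries and 3 flox libraries, which the methods give as Smad4 flox/flox and the sample labels as wild type. For the heterozygotes neither source names a Smad4 allele. The Cre+/- mice of both kinds, cKO and heterozygote, lack 1 intact copy of Tfap2e or Omp. For 1 more library of the AP-2εCre line the labels conflict, with a heterozygote in the title and a cKO genotype, and it was left out of the groups compared, apart from an alternative setting.

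Teneurins are large transmembrane proteins whose extracellular part holds EGF-like repeats, a β-propeller and a YD-repeat barrel. They bind one another across cells in a homophilic manner, and they bind latrophilins, which are adhesion G protein-coupled receptors with a lectin domain and an olfactomedin domain at their outer end. In the brain, matching teneurin levels on axons and their targets guide the choice of synaptic partner, and the teneurin-latrophilin pair takes part in synapse formation. VSN axons make such a choice when they form glomeruli in the accessory olfactory bulb.

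Short alternatively spliced exons change which of these contacts can form, and their sequences are shown because several results below turn on which transcripts carry them. In teneurins, one such exon of 21 bases lies in the β-propeller and is known to modify homophilic and latrophilin binding. It was printed from the GENCODE transcripts of GRCm38 on the coding strand, 5′ to 3′, with the exon in capitals between 30 bases of the neighbouring exons on each side. The Tenm1 exon lies at chrX:42648394-42648414 on the minus strand (exon 21 of Tenm1-203). The Tenm2 exon lies at chr11:36054926-36054946 on the minus strand (exon 22 of Tenm2-202). The Tenm3 exon lies at chr8:48287133-48287153 on the minus strand (exon 20 of Tenm3-201), and the Tenm4 exon at chr7:96854717-96854737 on the plus strand (exon 24 of Tenm4-203).
Tenm1: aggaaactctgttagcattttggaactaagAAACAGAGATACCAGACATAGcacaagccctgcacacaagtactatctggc
Tenm2: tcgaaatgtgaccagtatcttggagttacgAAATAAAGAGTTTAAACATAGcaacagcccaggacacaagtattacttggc
Tenm3: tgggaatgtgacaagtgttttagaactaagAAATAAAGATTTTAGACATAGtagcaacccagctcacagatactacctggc
Tenm4: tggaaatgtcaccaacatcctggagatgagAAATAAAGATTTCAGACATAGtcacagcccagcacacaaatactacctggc

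The β-propeller exon of Tenm3 and that of Tenm4 had the same base at 20 of 21 positions, Tenm2 and Tenm3 at 19, and Tenm2 and Tenm4 at 18. The Tenm1 exon stood further off, with 14, 16 and 17 equal bases against Tenm2, Tenm3 and Tenm4. A second short exon lies between the EGF-like repeats and takes part in the formation of teneurin dimers. It is shown for the 2 members whose coding transcripts include and lack it, Tenm3 (chr8:48313238-48313264, minus strand) and Tenm4 (chr7:96805105-96805131, plus strand), where 24 of its 27 bases were equal.
Tenm3 EGF: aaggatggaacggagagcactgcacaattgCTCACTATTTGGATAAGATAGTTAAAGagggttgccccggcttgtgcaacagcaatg
Tenm4 EGF: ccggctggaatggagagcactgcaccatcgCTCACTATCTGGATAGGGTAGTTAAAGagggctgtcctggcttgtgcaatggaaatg

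In latrophilins the corresponding short exon joins the lectin and olfactomedin domains, and its presence is known to weaken binding to teneurins. It spans 15 bases in Adgrl1 (chr8:83926262-83926276, plus strand, exon 5 of Adgrl1-201) and in Adgrl3 (chr5:81509724-81509738, plus strand, exon 5 of Adgrl3-202), of which 13 were equal. In Adgrl2 it spans 12 bases (chr3:148860427-148860438, minus strand, exon 4 of Adgrl2-208).
Adgrl1: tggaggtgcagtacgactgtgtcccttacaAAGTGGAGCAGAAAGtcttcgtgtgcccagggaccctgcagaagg
Adgrl2: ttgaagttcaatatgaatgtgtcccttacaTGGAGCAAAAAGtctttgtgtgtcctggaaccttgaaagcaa
Adgrl3: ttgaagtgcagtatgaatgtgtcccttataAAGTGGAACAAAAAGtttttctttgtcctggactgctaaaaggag

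The 18 libraries held 43385516 to 134042284 estimated counts, with a median of 63096714. Levels of single genes are given as CPM (counts per 1000000) after TMM normalization, and each p-value is two-sided. Smad4 itself, counted over its whole transcripts and all cells of the organ, stood at 33.8 to 66.5 CPM in the AP-2εCre cKO libraries against 39.6 to 81.0 CPM in their controls, and these ranges overlapped. Smad4 in the OMPCre line stood at 54.4 to 62.4 CPM in cKO against 64.8 to 83.8 CPM in controls, without overlap (log2 fold change -0.35, SE 0.089, edgeR adjusted p 0.909). By edgeR no gene of the marker lists for VNO neurons or other cell types was called in either line. Of all genes it called 0.0378% in the AP-2εCre line and 0% in the OMPCre line. The absence of marker calls therefore cannot show that cell types kept their shares. No marker was at 0 in all libraries. The summed level of 6 apical VSN markers was higher in cKO than in all controls in both lines, at 1146 to 1165 CPM against 901 to 1061 CPM in the AP-2εCre line and at 1091 to 1129 CPM against 934 to 1031 CPM in the OMPCre line, with 5 of the 6 markers higher in each. No other marker list separated in this way. Of single genes, 0.176% had all cKO libraries above all controls in both lines, and no such share is given for sums. The sum of 6 basal VSN markers overlapped between cKO and controls, at 721 to 871 CPM against 716 to 1023 CPM in the AP-2εCre line and at 807 to 901 CPM against 764 to 893 CPM in the OMPCre line. All 6 markers of immature neurons were higher in AP-2εCre cKO, with sums of 671 to 1001 CPM against 562 to 795 CPM that overlapped. In that line all 6 precursor markers (179 to 209.8 against 103 to 193 CPM) and all 4 markers of main olfactory neurons (221 to 251 against 184 to 255 CPM) were also higher, and 0 of 5 sustentacular markers (764 to 1173 against 1013 to 2938 CPM). In the OMPCre line 0 of 4 markers of mature neurons (492 to 577 against 543 to 793 CPM), 0 of 4 of main olfactory neurons (135 to 178 against 140.2 to 283 CPM) and 0 of 4 of muscle (2.14 to 5.14 against 1.64 to 93.6 CPM) were higher, as were 2 of 6 of precursors (81.1 to 121.9 against 116.9 to 177.0 CPM) and 1 of 6 of ensheathing and Schwann cells (131.0 to 156 against 151 to 189 CPM), and all these sums overlapped. Also higher in the OMPCre line were 1 of 6 endothelial, 1 of 6 cartilage and bone and 1 of 5 sustentacular markers. So were 4 of 6 immature neuron, 3 of 6 basal VSN and 3 of 4 fibroblast markers. In the AP-2εCre line these were 3 of 4 mature neuron, 1 of 6 basal VSN, 4 of 6 endothelial and 2 of 6 ensheathing and Schwann cell markers. There 4 of 6 cartilage and bone, 2 of 3 tested muscle and 3 of 4 fibroblast markers were higher too. The sums of these lists overlapped. The part of these shifts in the values below was not tested, and in whole organs fewer cells of a type and less RNA per cell cannot be told apart.

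Levels were first compared between the genes, per length, as TPM (transcripts per 1000000) in the 12 control libraries of both lines. Adgrl1 had 34.9, 49.4 and 78.6 TPM as its lowest, median and highest value, and Adgrl3 had 19.5, 49.4 and 74.3 TPM. Adgrl2 followed at 9.90, 13.97 and 24.2 TPM. All latrophilins thus had a higher median level per length than each teneurin. Among the teneurins, Tenm3 stood at 5.33, 7.76 and 14.2 TPM. Tenm4 (4.76, 6.20 and 9.52 TPM) and Tenm2 (4.04, 6.28 and 10.2 TPM) were almost level with each other. Tenm1, the X-linked member, was lowest, at 0.210, 0.468 and 0.793 TPM.

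Neighbours in this order were compared within libraries by an exact sign-flip permutation test on the log2 difference of TPM, with p-values adjusted over the 6 pairs. Adgrl1 and Adgrl3 did not differ beyond their spread (mean difference 0.10 ± 0.50 log2 units, SD over 12 libraries, adjusted p = 0.5005), nor did Tenm4 and Tenm2 (0.03 ± 0.13, adjusted p = 0.499). Adgrl3 exceeded Adgrl2 by 1.67 ± 0.58 and Adgrl2 exceeded Tenm3 by 0.86 ± 0.29 log2 units, in 12 of 12 libraries each (adjusted p = 0.00098 for each). Tenm3 exceeded Tenm4 by 0.30 ± 0.28 in 10 of 12 libraries (adjusted p = 0.00879), and Tenm2 exceeded Tenm1 by 3.81 ± 0.43 in 12 of 12 (adjusted p = 0.00098). In CPM, which is not scaled for length, Adgrl2 lay below Tenm3 (difference -0.33, exact permutation test, adjusted p = 0.00176).

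Much of the Adgrl1 and Adgrl3 level rested on short transcripts that hold few reads. A 440-base retained-intron transcript, Adgrl1-208, held a median of 62.1% of the gene's TPM and 5.16% of its counts, and a 241-base processed transcript, Adgrl3-229, held 58.1% of the TPM and 0.857% of the counts. With transcripts of at least 1000 bases alone, an alternative chosen after seeing the data, Adgrl3, Adgrl1 and Adgrl2 stood at 14.6 ± 3.15, 13.8 ± 3.42 and 13.8 ± 3.31 TPM (SD, n = 12). The order of the 3 latrophilins was then no longer separated (exact permutation test, adjusted p = 0.256 for both pairs). Adgrl2 still exceeded Tenm3, which stood at 8.16 TPM, by 0.76 log2 units (exact permutation test, adjusted p = 0.00146).

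**Figure D1:**
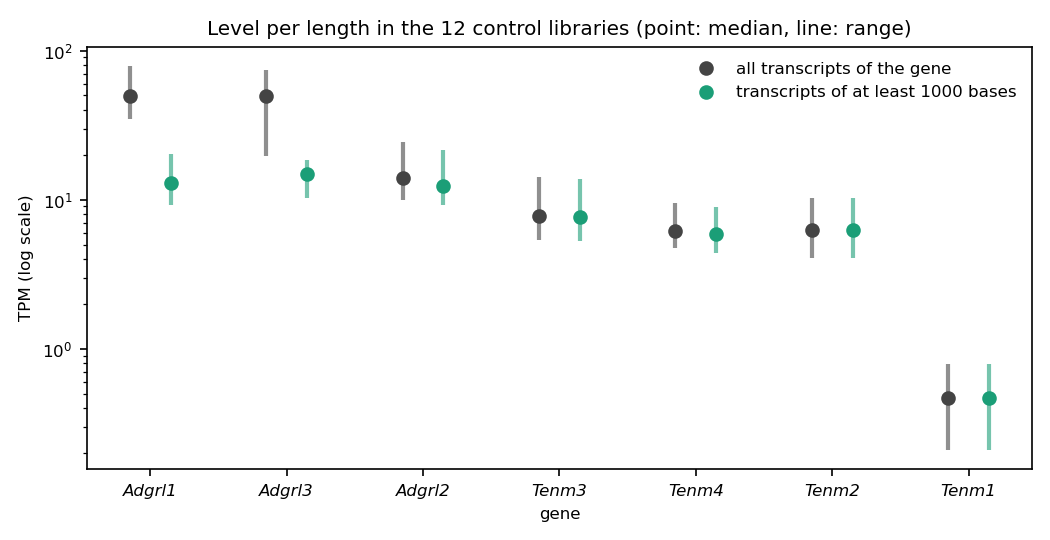
TPM on a log axis for each gene in the 12 control libraries, with points at the median and lines from the lowest to the highest library, in grey over all transcripts and in green over transcripts of at least 1000 bases. Adgrl1 and Adgrl3 drop to the level of Adgrl2 without the short transcripts, while the teneurins keep their levels and Tenm1 stays lowest.

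The effect of Smad4 loss was then examined gene by gene, with each cKO group against both kinds of control of its own line. Tenm2, a teneurin that binds latrophilins with high affinity, showed the largest difference among the 7 genes in the OMPCre line. OMPCre VNOs held Tenm2 at 67.9, 62.9 and 91.97 CPM in the flox controls, at 79.9, 76.0 and 72.3 CPM in the heterozygotes, and at 124.1, 110.8 and 122.4 CPM in the cKO libraries. Each cKO library was above each control, and the heterozygotes fell inside the range of the flox controls. The cKO mean was 119.1 ± 7.23 CPM (SD, n = 3) and the control mean 75.2 ± 10.2 CPM (SD, n = 6), a 1.58-fold difference. An exact permutation test, with 84 ways to draw 3 of the 9 libraries, gave p = 0.012, the smallest it can give. Across all genes, however, edgeR's quasi-likelihood test did not call Tenm2 (log2 fold change 0.66, SE 0.11, unadjusted p 0.000164, Benjamini-Hochberg adjusted p 0.306). DESeq2 called it, with an adjusted p of 0.000114. Over 18 alternative settings the log2 fold change stayed between 0.62 and 0.72, with adjusted p from 0.000114 to 1.0, DESeq2 being the setting that called it. The animals' names are lettered for 2 libraries and numbered for 1 in each group. Within the lettered names the OMPCre cKO libraries stood at 110.8 to 124.1 CPM against 62.9 to 79.9 CPM, and within the numbered names at 122.4 CPM against 72.3 to 91.97 CPM.

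In the AP-2εCre line the Tenm2 difference was smaller. Tenm2 stood at 73.9, 77.6 and 80.9 CPM in the flox controls, at 53.6, 79.5 and 82.9 CPM in the heterozygotes, and at 82.0, 85.5 and 111.9 CPM in the cKO libraries. The groups overlapped, since cKO replicate 1 lay below heterozygote replicate 3, and cKO replicate 3 was alone above 100 CPM. The means were 93.1 ± 16.3 CPM (SD, n = 3) and 74.7 ± 10.8 CPM (SD, n = 6; exact permutation p = 0.0595), and edgeR gave a log2 fold change of 0.32 (SE 0.14, adjusted p 0.488). Within the lettered names cKO stood at 85.5 to 111.9 CPM against 53.6 to 79.5 CPM, but within the numbered names the single cKO library, at 82.0 CPM, fell between its 2 controls at 80.9 and 82.9 CPM. Without cKO replicate 3 the log2 fold change dropped to 0.17.

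**Figure D2:**
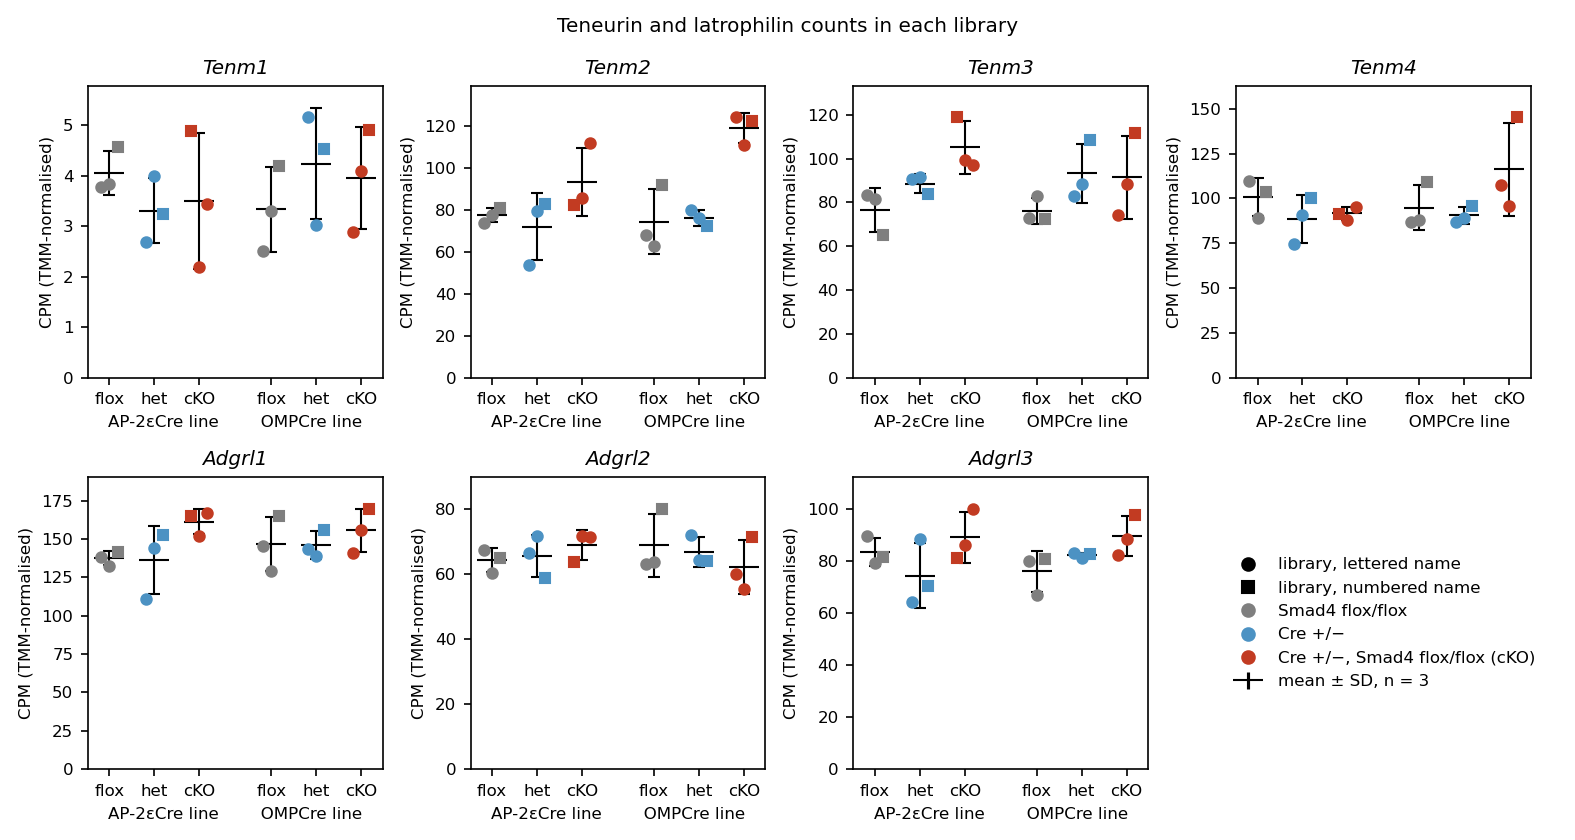
CPM after TMM normalization of each gene in each of the 18 libraries, with 1 panel per gene, circles and squares for lettered and numbered animal names, black lines at the group mean ± SD (n = 3), and flox (grey), heterozygous (blue) and cKO (red) groups of both lines along the axis. The 3 OMPCre cKO libraries sit between 110.8 and 124.1 CPM for Tenm2, above all 6 controls of that line, and the 3 AP-2εCre cKO libraries sit between 97.1 and 118.8 CPM for Tenm3, above all 6 of theirs.

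Tenm3, the teneurin best known for matching axons to their targets, had the largest log2 fold change of the 7 genes in the AP-2εCre line. In AP-2εCre VNOs Tenm3 stood at 83.3, 81.5 and 65.0 CPM in the flox controls, at 90.5, 91.6 and 83.6 CPM in the heterozygotes, and at 118.8, 99.2 and 97.1 CPM in the cKO libraries. The genotypes formed an order with no overlap, in which each heterozygote was above each flox control and each cKO library above each heterozygote. The cKO mean of 105.0 ± 12.0 CPM (SD, n = 3) was 1.27-fold the control mean of 82.6 ± 9.53 CPM (SD, n = 6; exact permutation p = 0.012, the smallest possible). By edgeR the log2 fold change was 0.35 (SE 0.11, unadjusted p 0.0105, adjusted p 0.345), and it was not called. The numbered cKO library at 118.8 CPM stood well above its controls at 65.0 and 83.6 CPM, and the lettered ones at 97.1 and 99.2 CPM stood just above theirs at 81.5 to 91.6 CPM. In OMPCre VNOs Tenm3 stood at 72.9, 83.0 and 72.5 CPM in flox controls, at 83.0, 88.2 and 108.6 CPM in heterozygotes, and at 74.1, 88.5 and 111.6 CPM in cKO. Here the cKO libraries spanned the range of the heterozygotes and overlapped the flox controls (cKO against both controls, log2 fold change 0.11, SE 0.15, edgeR adjusted p 1.0).

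Tenm4, which is widely expressed during neural development, stood at 109.8, 89.2 and 103.8 CPM in the AP-2εCre flox controls, 74.4, 90.8 and 100.4 CPM in the heterozygotes and 91.2, 88.2 and 95.4 CPM in cKO. All cKO values lay inside the range of the controls (log2 fold change -0.05, SE 0.11, edgeR adjusted p 0.943). OMPCre VNOs had Tenm4 at 87.0, 88.2 and 109.3 CPM in flox controls, 87.0, 88.9 and 95.8 CPM in heterozygotes, and 107.3, 96.0 and 145.3 CPM in cKO. The cKO libraries were above all heterozygotes, cKO replicates 1 and 2 lay below flox replicate 3, and cKO replicate 3 stood apart at the top. The means were 116.2 ± 25.8 CPM (SD, n = 3) and 92.7 ± 8.79 CPM (SD, n = 6; exact permutation p = 0.0476), with an edgeR log2 fold change of 0.32 (SE 0.13, adjusted p 1.0). Without cKO replicate 3 it was 0.13.

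Tenm1 was at the low end of detection in whole VNOs, with 145 to 330 estimated counts per library in 12 controls and 186 to 316 in 6 cKO libraries. Its level was 2.51 to 5.16 CPM in controls and 2.19 to 4.90 CPM in cKO, and the groups overlapped in both lines. The log2 fold changes were -0.07 (SE 0.26) in the AP-2εCre line and 0.06 (SE 0.26) in the OMPCre line, each smaller than its error.

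Adgrl1, a latrophilin that also binds neurexins and teneurins at synapses, differed more in the AP-2εCre line. It stood at 138.5, 132.4 and 141.2 CPM in the AP-2εCre flox controls, at 110.9, 144.3 and 152.7 CPM in the heterozygotes and at 164.9, 151.8 and 166.6 CPM in cKO. The cKO libraries were above all flox controls, and 1 heterozygote exceeded the lowest cKO library (log2 fold change 0.24, SE 0.098, unadjusted p 0.0331, edgeR adjusted p 0.441). Its OMPCre values of 141.1, 155.8 and 169.6 CPM in cKO overlapped the controls at 129.4 to 164.9 CPM (log2 fold change 0.09, SE 0.091). Adgrl3, a receptor for teneurins and FLRT proteins, stood at 81.4, 86.2 and 100.2 CPM in AP-2εCre cKO against 64.3 to 89.7 CPM in its 6 controls. These overlapped (log2 fold change 0.18, SE 0.12, edgeR adjusted p 0.657), and without cKO replicate 3 the log2 fold change was 0.092. Adgrl3 of the OMPCre line stood at 80.2, 67.0 and 80.9 CPM in flox controls, 83.2, 81.3 and 82.7 CPM in heterozygotes, and 82.4, 88.5 and 97.8 CPM in cKO. Here the cKO and heterozygous libraries were each above all flox controls, and the lowest cKO library lay among the heterozygotes (log2 fold change 0.18, SE 0.085, edgeR adjusted p 1.0; exact permutation p = 0.0476). Without cKO replicate 3 of this line it was 0.11.

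Adgrl2, the remaining latrophilin, stood at 63.6, 71.8 and 71.3 CPM in AP-2εCre cKO against 58.7 to 71.6 CPM in controls, and at 59.9, 55.4 and 71.4 CPM in OMPCre cKO against 63.0 to 80.1 CPM in controls. The groups overlapped in both lines, with log2 fold changes of 0.09 (SE 0.081) and -0.13 (SE 0.11) in opposite directions.

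The counts over the 7 genes were read beside the same counts over all genes tested. In the AP-2εCre line edgeR called 0 of 7 members of these families, with 0.0378% of 18495 genes called. At an unadjusted p under 0.05 it had 3 of 7 (Tenm2, Tenm3 and Adgrl1), where 10.2% of all genes passed, and DESeq2 called 0 of 7 where it called 1.67% of all genes. For the OMPCre line edgeR called 0 of 7 members and 0% of 18623 genes. There 2 of 7 (Tenm2 and Tenm4) had an unadjusted p under 0.05 beside 3.95% of all genes, and DESeq2 called 1 of 7, Tenm2, beside 0.231%. Over the AP-2εCre libraries 5 of the 7 genes had a log2 fold change above 0 with a median of 0.18, and in the OMPCre line 6 of 7 with a median of 0.11, while the median over all genes was 0.00 in the AP-2εCre line and -0.00 in the OMPCre line. All cKO libraries were above all controls for 1 of 7 in the AP-2εCre line (Tenm3, beside 2.21% of all genes) and for 1 of 7 in the OMPCre line (Tenm2, beside 1.41%). No member was above all controls in both lines, which 0.176% of 18735 genes were. None was below all controls in either line, but the share of all genes below is not given here, so nothing is read from that.

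**Figure D3:**
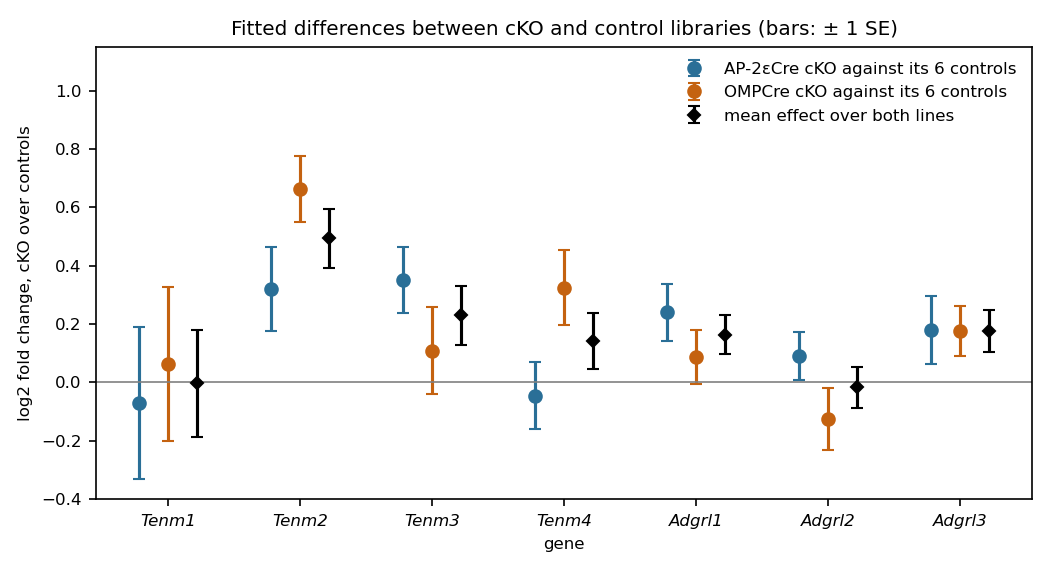
Log2 fold change of cKO over controls for each gene, with bars of 1 SE, in blue for the AP-2εCre line, in orange for the OMPCre line and in black for the mean effect over both lines. Tenm2 lies highest in the OMPCre line at 0.66, Tenm3 in the AP-2εCre line at 0.35, and Tenm1 and Adgrl2 lie near 0.

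The 2 kinds of control were next taken apart, since the flox controls carry no Cre and the heterozygotes carry Cre, with no Smad4 allele named for them. For Tenm2 in the OMPCre line both gave the same size of difference, with a log2 fold change of 0.68 (SE 0.14, edgeR adjusted p 0.630) against flox controls and 0.65 (SE 0.14, edgeR adjusted p 0.358) against heterozygotes. DESeq2 called both, with adjusted p of 0.00283 and 0.00368, and over all settings the adjusted p ran from these values to 1.0 and to 0.880. The heterozygotes differed from the flox controls by 0.02 (SE 0.14, edgeR adjusted p 0.998). In the AP-2εCre line the differences of Tenm2 were 0.27 (SE 0.17) against flox controls, where the cKO libraries were all higher, and 0.37 (SE 0.17) against heterozygotes, where they overlapped.

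For Tenm3 the heterozygotes lay between flox controls and cKO in the AP-2εCre line. The log2 fold change was 0.46 (SE 0.12, edgeR adjusted p 0.418) for cKO against flox controls and 0.25 (SE 0.12, edgeR adjusted p 0.540) for cKO against heterozygotes. The heterozygotes exceeded the flox controls by 0.21 (SE 0.12, edgeR adjusted p 0.978). OMPCre heterozygotes were likewise above all flox controls, by 0.28 (SE 0.16, edgeR adjusted p 0.853), while cKO differed from heterozygotes by -0.03 (SE 0.16). For Tenm4 the OMPCre cKO libraries exceeded all heterozygotes by 0.36 (SE 0.16, edgeR adjusted p 1.0).

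With 3 libraries against 3 the exact permutation test cannot go below p = 0.1, and edgeR called 0 of 7 members in each of these comparisons. The background was 0.027% of genes for cKO against flox controls in the AP-2εCre line and 0.103% against heterozygotes, and 0.00537% and 0.0537% in the OMPCre line. For heterozygotes against flox controls it was 0.0487% in the AP-2εCre line and 0.0752% in the OMPCre line. Unadjusted p-values under 0.05 were found in the AP-2εCre line for 1 of 7 against flox controls (Tenm3, beside 7.86% of all genes) and 0 of 7 against heterozygotes (beside 10.1%). In the OMPCre line they were found for 2 of 7 against flox controls (Tenm2 and Adgrl3, beside 4.63%) and 2 of 7 against heterozygotes (Tenm2 and Tenm4, beside 4.57%). Between the kinds of control there were 0 of 7 in either line, beside 5.47% in the AP-2εCre line and 5.84% in the OMPCre line. DESeq2 called Tenm2 alone, in the OMPCre line, against flox controls (1 of 7, beside 0.424% of all genes) and against heterozygotes (1 of 7, beside 0.762%), and 0 of 7 in the other 4. Those were cKO against flox controls (1.08% of all genes) and against heterozygotes (2.02%) in the AP-2εCre line, and heterozygotes against flox controls in the AP-2εCre line (0.665%) and in the OMPCre line (0.832%).

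Groups that did not overlap were more frequent in these smaller comparisons, among all genes as well. The cKO libraries were above all flox controls for 3 of 7 in the AP-2εCre line (Tenm2, Tenm3 and Adgrl1), beside 6.68% of all genes, and for 2 of 7 in the OMPCre line (Tenm2 and Adgrl3), beside 4.52%. They were above all heterozygotes for 1 of 7 in the AP-2εCre line (Tenm3), beside 7.43%, and for 2 of 7 in the OMPCre line (Tenm2 and Tenm4), beside 5.43%. Heterozygotes were above all flox controls for 1 of 7 in the AP-2εCre line (Tenm3), beside 4.9%, and for 2 of 7 in the OMPCre line (Tenm3 and Adgrl3), beside 6.48%. Tenm3 was thus the member for which both heterozygous groups stood above their flox controls, but by narrow gaps. Its lowest heterozygote and highest flox control were 83.61 and 83.31 CPM in the AP-2εCre line. They were 83.04 and 82.97 CPM in the OMPCre line. The share of all genes that do so in both lines is not given here.

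Both lines were then fitted together to give a mean cKO effect over the 18 libraries. Tenm2 had a mean log2 fold change of 0.49 (SE 0.10, 95% interval 0.28 to 0.71), or 1.41-fold, with an unadjusted p of 0.000114 and an edgeR adjusted p of 0.0712, which missed the threshold of 0.05. The exact permutation test within lines, over 7056 splits, gave p = 0.000283 for Tenm2. DESeq2 called it with an adjusted p of 0.00183, and over 26 settings the adjusted p ran from 0.00183 to 0.319, with a call in 5 of them. Adgrl1 had a mean effect of 0.16 (SE 0.067, edgeR adjusted p 0.511), Adgrl3 of 0.18 (SE 0.072, edgeR adjusted p 0.507) and Tenm3 of 0.23 (SE 0.10, edgeR adjusted p 0.542). Those of Tenm4 (0.14, SE 0.097), Adgrl2 (-0.02, SE 0.070) and Tenm1 (-0.00, SE 0.18) had intervals that include 0. edgeR called 0 of 7 members for the mean effect beside 0.117% of all genes, with 4 of 7 at an unadjusted p under 0.05 beside 8.8%, and DESeq2 called 1 of 7 beside 0.566%.

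An interaction term tested whether Smad4 loss had unequal effects in the 2 lines. For Tenm2 the effect was larger in the OMPCre line by 0.35 (SE 0.19, 95% interval -0.06 to 0.75, edgeR adjusted p 1.0), and for Tenm4 by 0.37 (SE 0.18, 95% interval -0.00 to 0.75, edgeR adjusted p 1.0). For Tenm3 it was smaller in the OMPCre line by 0.24 (difference -0.24, SE 0.20, 95% interval -0.66 to 0.18). edgeR called 0 of 7 members for this difference, with 0% of 19465 genes called, 0 of 7 at an unadjusted p under 0.05 beside 4.91%, and DESeq2 called 0 of 7 beside 0.0976%. None of the 7 genes was therefore shown to respond differently in the 2 lines. The controls of the lines had similar levels of all 7 genes, with log2 differences of OMPCre over AP-2εCre controls from -0.02 (Tenm4) to 0.10 (Adgrl1), and that of Tenm2 was 0.01 (SE 0.12). There edgeR called 0 of 7 members beside 0.0972% of 18522 genes, 0 of 7 had an unadjusted p under 0.05 beside 6.5%, and DESeq2 called 0 of 7 beside 0.745%.

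Single transcripts were examined next, with 99 transcripts for the 7 genes, of which 53 passed the filter in the AP-2εCre line and 54 in the OMPCre line. Tenm2 came almost wholly from Tenm2-202 (ENSMUST00000102801.7, 9908 bases, chr11:36006656-37235882), with 96.1% of its counts over all libraries and 88.1% to 99.7% in single libraries. In the OMPCre line Tenm2-202 stood at 109.3 to 122.2 CPM in cKO and at 61.8 to 91.3 CPM in controls, again without overlap. Its log2 fold change of 0.66 (SE 0.13) was close to that of the whole gene (edgeR adjusted p 1.0 over all transcripts).

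Tenm4 and Adgrl1 were likewise carried by 1 transcript each, Tenm4-203 with 92.02% of counts (86.7% to 95.8%) and Adgrl1-207 with 90.1% (87.0% to 92.7%). Tenm3 was split between Tenm3-201, with 64.6% (53.7% to 87.4%), and Tenm3-206, with 34.8% (12.4% to 46.3%). Tenm3-206 in the AP-2εCre line stood at 28.2 to 45.3 CPM in cKO and 17.2 to 35.3 CPM in controls (log2 fold change 0.67, SE 0.25, unadjusted p 0.0262, edgeR adjusted p 1.0), and Tenm3-201 differed by 0.19 (SE 0.14). Adgrl2 was spread over Adgrl2-220 (41.0%), Adgrl2-212 (13.6%) and Adgrl2-208 (12.0%), and Adgrl3 over Adgrl3-220 (27.1%) and Adgrl3-211 (14.4%). Tenm1 counts went to Tenm1-202 (48.7%) and Tenm1-203 (37.4%), which were at 0 in 8 and in 9 of the 18 libraries. The split of its few counts thus changed from library to library. Whether read assignment or transcript use differed was not tested.

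Among single transcripts edgeR called 0 of 53 in the AP-2εCre line, beside 0% of 58883 transcripts, and 0 of 54 in the OMPCre line, beside 0.00337% of 59367. At an unadjusted p under 0.05 there were 4 in the AP-2εCre line, beside 4.84% of all transcripts, and 2 in the OMPCre line, beside 2.53%. DESeq2 called 2 in the AP-2εCre line, Adgrl3-219 and Adgrl3-222, beside 1.08% of all transcripts, and 1 in the OMPCre line, Tenm2-202, beside 0.485%. Both Adgrl3 transcripts were at 0 in all 3 AP-2εCre cKO libraries and at 0 to 11.4 CPM and 0 to 7.15 CPM in their controls. A test of transcript usage, which asks whether the transcripts of a gene change in different proportion, called 0 of 7 members in the AP-2εCre line beside 0.0966% of 12416 genes (lowest unadjusted p 0.0816, for Adgrl3) and 0 of 7 in the OMPCre line beside 0.129% of 12432 genes (lowest unadjusted p 0.486). DESeq2 was not run for usage, and this test was poorly calibrated on simulated data.

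The share of counts in coding transcripts that hold the short exons shown above differed widely between the genes. Every coding Tenm2 transcript across the site holds the 21-base β-propeller exon, so its share was 100% in all 18 libraries by annotation alone. The share was also 100% in all 18 for the 15-base exon of Adgrl3, where the 1 coding transcript without it, Adgrl3-201, had 0 counts in every library. For Tenm4 the share had 87.2%, 93.2% and 96.9% as its lowest, median and highest value over the libraries. For Tenm3 it was lower, at 53.7%, 66.2% and 87.6%. Most Tenm4 counts and, in each library, more than 50% of Tenm3 counts thus lay in transcripts with the exon. The EGF-like exon is held by the same set of transcripts in Tenm3 and in Tenm4 and gave the same shares.

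Adgrl1 stood at the other end, with 0%, 1.78% and 4.44% of counts in transcripts with its 15-base exon, and Adgrl2 lay between, at 30.9%, 45.3% and 58.2%. For Tenm1 the share was 0% in 7 libraries and 100% in 8.

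For Tenm3 in the OMPCre line the share was 68.1%, 87.6% and 78.8% in the flox controls, 53.7%, 65.8% and 56.5% in the heterozygotes and 59.3%, 54.7% and 61.7% in cKO. The flox controls were thus above all other libraries of that line, and heterozygotes and cKO overlapped. AP-2εCre shares were 73.1% to 77.3% in flox controls, 60.9% to 75.3% in heterozygotes and 54.3% to 70.9% in cKO, where the cKO libraries were below all flox controls and overlapped the heterozygotes. These separations of Tenm3 from the flox controls were not tested, and no share over all genes is given for them. The transcript usage test of cKO against both controls, itself poorly calibrated, did not call Tenm3. Its unadjusted p in that test was 0.827 in the AP-2εCre line and 0.597 in the OMPCre line. Against both kinds of control, the cKO ranges overlapped the controls for each of these genes in both lines. The transcripts with and without a short exon also differ at other exons, so these shares do not read the short exon alone.

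**Figure D4:**
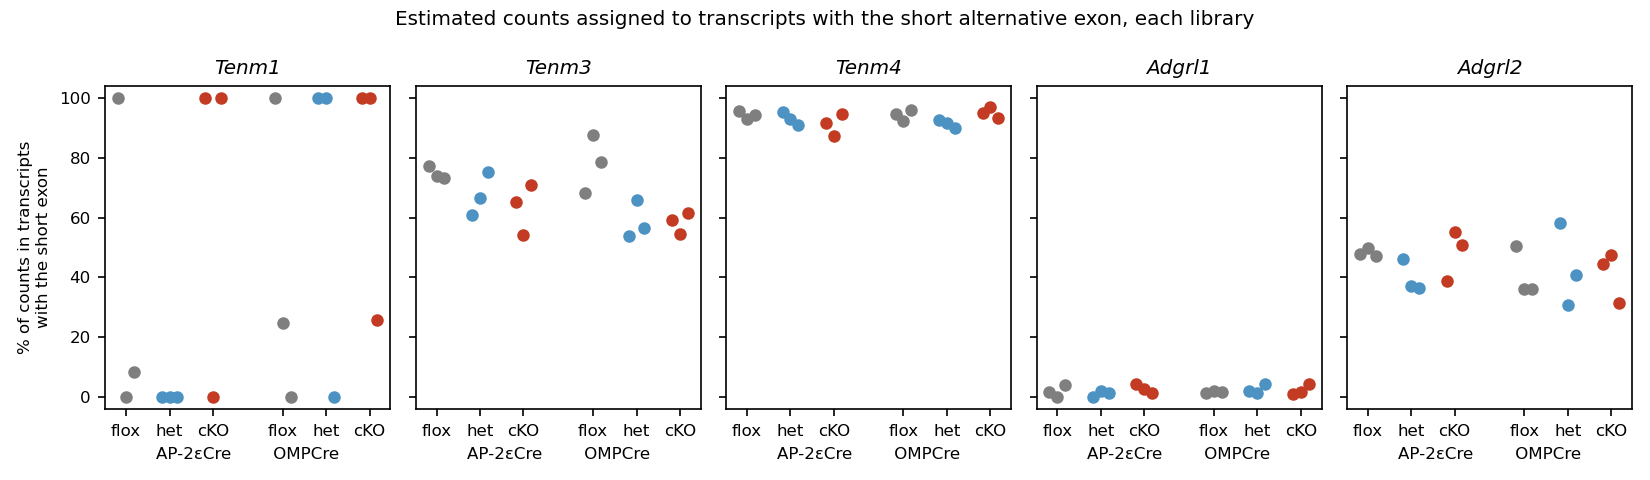
Percent of a gene's counts at the site that lay in coding transcripts with the short exon, with 1 panel for each of the 5 genes whose share varied between libraries, 1 point per library and the flox (grey), heterozygous (blue) and cKO (red) groups of both lines along the axis. Tenm4 sits near 93.2%, Tenm3 near 66.2%, Adgrl2 near 45.3% and Adgrl1 near 1.78%, and Tenm1 spreads from 0% to 100%.

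Other genes of the pathway were taken from a list of 15 ligands, receptors and intracellular partners, with Adgrl4, a relative of the latrophilins, counted among them. It holds FLRT proteins and other ligands, which bind latrophilins outside the cell, the netrin receptors of the Unc5 family, which bind FLRT proteins, Shank scaffolds, which bind latrophilins inside the cell, and dystroglycan (Dag1), which has been tied to teneurins. In the AP-2εCre line edgeR called 0 of 14 tested, with 4 at an unadjusted p under 0.05 (10.2% of all genes), and DESeq2 called 1, Unc5a (1.67% of all genes). For the OMPCre line edgeR called 0 of 15, with 0 at an unadjusted p under 0.05 (3.95% of all genes), and DESeq2 called 0 (0.231%). The log2 fold change was above 0 for 10 of 14 in the AP-2εCre line (median 0.20), against 50.6% of all genes, and for 11 of 15 in the OMPCre line (median 0.08), against 48.7%. No listed partner separated all cKO libraries from all controls in either line. Of all genes, 2.21% in the AP-2εCre line and 1.41% in the OMPCre line were above all controls. The share below all controls is not given here.

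Unc5a, a receptor for netrin and FLRT proteins, had the largest difference of the listed partners. It stood at 0.631 to 2.75 CPM in AP-2εCre cKO against 1.91 to 11.2 CPM in controls (log2 fold change -2.18, SE 0.69, edgeR adjusted p 0.344), and differed by -0.46 (SE 0.27) in the OMPCre line, where it was -0.29 without cKO replicate 2. It was low and its groups overlapped in both lines. Unc5d, of the same family, stood at 2.35 to 3.58 CPM in AP-2εCre cKO against 1.52 to 2.82 CPM in controls (log2 fold change 0.47, SE 0.24). Nrxn3, a neurexin, stood at 1.32 to 2.09 CPM in OMPCre cKO against 0.688 to 1.65 CPM in controls (log2 fold change 0.45, SE 0.34, and 0.22 without cKO replicate 3). The groups overlapped for both genes.

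Of the FLRT ligands, Flrt2 stood at 95.1 to 157.0 CPM in AP-2εCre cKO against 73.8 to 96.1 CPM in controls (log2 fold change 0.37, SE 0.16, edgeR adjusted p 0.454). Only cKO replicate 1 stood far above the Flrt2 controls, and without it the log2 fold change was 0.092. In the OMPCre line Flrt2 stood at 87.0 to 127.7 CPM in cKO against 80.3 to 128.8 CPM. Flrt1 stood at 217.5 to 255.4 CPM in AP-2εCre cKO against 125.2 to 236.0 CPM in controls, and at 231.8 to 305.9 CPM in OMPCre cKO against 177.8 to 246.0 CPM. The groups overlapped for both genes in both lines, with log2 fold changes of Flrt1 of 0.27 (SE 0.17) in the AP-2εCre line and 0.24 (SE 0.12) in the OMPCre line. They were 0.17 without AP-2εCre heterozygote replicate 1 and 0.11 without OMPCre cKO replicate 3. Dag1 had log2 fold changes of -0.06 (SE 0.083) in the AP-2εCre line, which was -0.012 without flox replicate 1, and of -0.01 (SE 0.072) in the OMPCre line, which turned to 0.029 without cKO replicate 1 and to 0.021 without heterozygote replicate 3. Cntn6, another ligand on the list, was near 0, with at most 0.228 CPM in any library of the OMPCre line (log2 fold change -0.34, SE 1.16), and its direction changed without cKO replicate 1 (0.16).

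**Figure D5:**
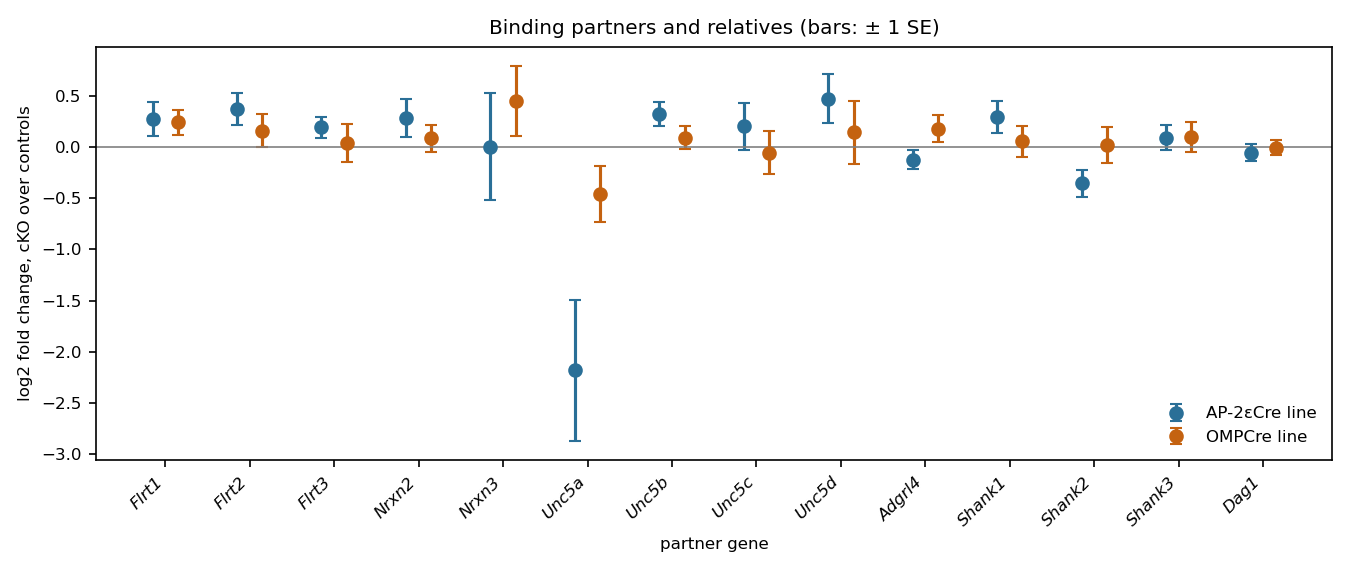
Log2 fold change of cKO over controls with bars of 1 SE for the 14 partner genes tested in both lines, in the AP-2εCre line (blue) and the OMPCre line (orange). Most genes lie between -0.5 and 0.5, and Unc5a lies at -2.18 in the AP-2εCre line with an error of 0.69.

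Finally, genes with the most similar pattern over the 18 libraries were listed for each member, as those with the smallest root mean square difference between standardised log2(CPM + 1) values, among 12872 genes with a mean of at least 5 CPM (12873 for Tenm1). For Tenm2 these were Srd5a1 (0.472), Tmem151b (0.473) and Pla2g16 (0.474). For Tenm3 they were Kirrel (0.396), Flrt2 (0.404) and Fam129a (0.410), and for Tenm4 Nwd1 (0.468), Cntnap2 (0.481) and Braf (0.528). The second closest gene to Tenm3, Flrt2, is thus a latrophilin ligand from the list above.

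For Adgrl1 the closest were Prrc2b (0.368), Kif5c (0.394) and Rubcn (0.407), and for Adgrl3 Gabbr2 (0.447), Agtpbp1 (0.457) and Ptpdc1 (0.464). Adgrl2 had more distant neighbours in Recql (0.647), Entr1 (0.672) and Hace1 (0.682), as did Tenm1 in Fam160a2 (0.555), Mtx3 (0.584) and Jmjd4 (0.605). No other member of the 2 families was among these lists. The libraries shared in this measure differ in depth, line and genotype, and the values are a description without a test.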

How the data were processed

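The authors quantified stranded polyA+ single reads of 75 bases from whole VNOs with salmon 0.14.0 on GRCm38 (mm10), and per the labels also used DESeq2 1.22.2. Their methods name a CDS assembly, but the transcript lengths in the files equalled whole GENCODE vM21 transcripts for 115995 of 115995 matched. The measurement used was the deposited estimated count per transcript, a value that can be fractional and is not normalized. The deposited TPM, scaled per library to a sum of 1000000 over transcripts, was used for levels per length and in 1 alternative. No deposited table of fold changes was used.

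Of 116248 transcripts, 116072 were matched to a GENCODE vM21 gene, and the other 176 (at most 0.0324% of a library's counts) were left out. Counts were summed per gene and rounded. Groups were taken from the labels. The main test was the quasi-likelihood test of edgeR 4.0.16 (R 4.3.3) with TMM, filterByExpr and Benjamini-Hochberg adjustment over all features, called at an adjusted p under 0.05. Each cKO was compared with both controls of its line, and a 3-group fit gave the separate comparisons. The mean effect was the common knockout effect in a fit of the 18 libraries with terms for line and knockout. The difference of the lines came from a separate fit that added their interaction. Each interval came from the t distribution of its own fit. Single genes were tested by exact permutation of log2(CPM + 1), with a smallest p of 0.012 for 3 libraries against 6, 0.1 for 3 against 3 and 0.000142 for both lines. DESeq2 1.42.0 was an alternative, and the tests were tested on simulated data. Transcript usage was tested with edgeR's diffSpliceDGE, which was poorly calibrated on simulated data. Each label names a biological replicate, and no replicate pair agreed within sampling noise. The remaining steps used Python 3.11.15 with scipy 1.17.1, matplotlib 3.10.9, numpy 2.4.6 and pandas 2.3.3.

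The 7 genes, the partner list and the marker lists were chosen with earlier results of these data known. Named beside the 7 genes are their transcripts with at least 10% of the gene's counts or a call by a test, the 3 genes most like each in pattern among genes averaging 5 CPM or more, and of the partners those called, those whose groups do not overlap and the 3 with the largest change in each line. Flrt1 and Dag1 were named after their values were seen, and 2 genes of the partner list as first drawn up are not reported here.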

Additional observations from a re-analysis of the deposited data

Results flagged for a closer look

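2 control libraries stood far from the other 5 of their line for 1 gene each. This was tested for each of the 7 genes in each of the 2 lines. Chance passes the test in about 1 of 20 groups, so a pass can arise by chance among so many. For Tenm2, AP-2εCre heterozygote replicate 1 had 53.6 CPM, the lowest of the 6 controls, and without it the cKO difference in that line was 0.24 on the log2 scale. For Adgrl3, OMPCre flox replicate 2 had 67.0 CPM, the lowest of the 6 controls.

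The library with conflicting labels was above the highest AP-2εCre control for 3 of the 7 genes, on CPM without TMM factors. The share of all genes for which it was above them is not given here, so this count has no background. It had 94.0 CPM of Tenm3, 162.4 CPM of Adgrl1 and 75.5 CPM of Adgrl2, against highest control values of 91.9, 152.5 and 71.8 CPM. The AP-2εCre cKO libraries ranged from 102.9 to 134.2 CPM for Tenm3, from 158.7 to 186.1 CPM for Adgrl1 and from 71.8 to 75.6 CPM for Adgrl2, so that it lay within the cKO range for Adgrl1 and Adgrl2 and below it for Tenm3. Its group cannot be told from the labels, and it was used only in an alternative fit that counted it as a heterozygote.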

How the results depend on the processing

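The number of the 7 genes called moved with the tool. DESeq2 called 1, Tenm2, in the OMPCre line against both controls, against flox controls (1) and against heterozygotes (1), and for the mean effect (1). For the mean effect edgeR also called 1 with at least 10 counts in every library and 1 with the library of conflicting labels added to the heterozygotes, and 0 to 1 with each library left out, the calls coming without AP-2εCre cKO replicate 1 or OMPCre flox replicate 3. DESeq2 called 2 transcripts in the AP-2εCre line and 1 in the OMPCre line. In the 6 flox controls alone, 0 neighbour pairs of the level order passed the threshold, where 3 reached an exact p of 0.031, the smallest that 6 libraries can give, and an adjusted p of 0.0625. For the tool and filter, the cause was not tested.

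Some directions changed. With lettered libraries alone the log2 fold change was 0.014 for Tenm4 in the AP-2εCre line, and -0.000249 for Tenm1 and -0.00635 for Tenm3 in the OMPCre line. Length-scaled TPM gave -0.056 for Tenm2 in OMPCre heterozygotes against flox controls and 0.16 for the mean effect of Tenm1. The Adgrl3 difference between lines was -2.78e-05 with DESeq2, -0.0030 with at least 1 count in total and -0.0023 with at least 10 counts in every library. In CPM, not scaled for length, Adgrl2 minus Tenm3 was -0.33 (exact permutation test, adjusted p 0.00176), against 0.86 per length, and Tenm3 minus Tenm4 -0.17 log2 units. With transcripts of at least 1000 bases, chosen after seeing the data, Adgrl1 minus Adgrl3 was -0.084 and Tenm4 minus Tenm2 -0.045.

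With each library left out in turn, Tenm1 ranged from -0.39 to 0.18 in the AP-2εCre line, from -0.12 to 0.24 in the OMPCre line, from -0.13 to 0.11 for the mean effect and from -0.11 to 0.45 for the difference. Tenm4 ranged from -0.11 to 0.000227 in the AP-2εCre line, Tenm3 from -0.059 to 0.23 in the OMPCre line, Adgrl2 from -0.047 to 0.030 for the mean effect and Adgrl3 from -0.068 to 0.092 for the difference. Tenm2 ranged from -0.22 to 0.062 for heterozygotes against flox controls in the AP-2εCre line, from -0.087 to 0.22 in the OMPCre line, and from -0.071 to 0.069 between the controls of the lines. The cKO effect of Tenm2 kept its direction in all settings, at 0.17 to 0.47 in 19 settings in the AP-2εCre line and at 0.62 to 0.72 in 18 settings in the OMPCre line.

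Replicate numbers were not taken to pair the libraries, since not every same-numbered pair had deviations correlated above 0.1. The correlations were -0.34 to 0.21 in the AP-2εCre line (mean -0.089, against 0.046 for unlike numbers) and 0.035 to 0.56 in the OMPCre line (mean 0.26, against -0.13). In neither line did every library correlate best with its own number. With the number as a replicate block, Tenm2 had a log2 fold change of 0.67 (edgeR adjusted p 0.216) in the OMPCre line and 0.32 (edgeR adjusted p 0.499) in the AP-2εCre line, and 0 of the 7 genes were called. Tenm1 had the fewest counts, at most 330 estimated counts in a library.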

Other observations

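In the library with conflicting labels the other 4 genes lay within the range of the AP-2εCre controls on CPM without TMM factors. Tenm2 stood at 74.0 CPM, where the controls ranged from 48.7 to 86.2 CPM and the cKO libraries from 89.4 to 118.5 CPM. Adgrl3, at 85.3 CPM, was likewise below the cKO libraries (90.1 to 106.1 CPM). Tenm1 at 3.83 CPM and Tenm4 at 98.4 CPM also lay within the range of the cKO libraries, which was 2.29 to 5.51 CPM and 92.2 to 102.9 CPM.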
